A study of Sus scrofa with 4 samples.

Results

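The genes of glycolysis and of the hypoxia response were followed in 2 libraries of porcine fetal fibroblasts labelled as over-expressing BRG1 and in 2 control libraries. The list holds 43 symbols: the enzymes that take glucose to lactate, the enzymes and kinases that regulate this route, glucose and lactate carriers, the hypoxia-inducible factors (HIF) and their oxygen sensors, and other HIF targets. A count row with the symbol was used for 40 of the 43, out of 35670 genes counted, and SLC2A3, SLC16A1 and VHL were not analysed here. Of the 40, 38 passed the filter on low counts. PFKFB1 had 0 and 0 reads in the BRG1-labelled libraries and 1 and 0 in controls, PDK4 had 4 and 8 reads against 2 and 0, and neither was tested.

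Glycolysis splits glucose into pyruvate in the cytosol and yields ATP without oxygen, and lactate dehydrogenase then turns pyruvate into lactate so that the route can run on. Its pace is set largely at hexokinase, phosphofructokinase and pyruvate kinase, and by carriers in the plasma membrane. HIF is a pair of an oxygen-labile alpha subunit and the stable subunit ARNT. When oxygen is low the alpha subunit escapes hydroxylation by the EGLN enzymes and breakdown through VHL, and the pair switches on most glycolytic genes, glucose uptake and lactate export. Cultured fibroblasts are strongly glycolytic also with oxygen present.

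The cells are skin fibroblasts of pig fetuses, used as nuclear donors for cloning, and all 4 libraries come from serum-starved cells. The 2 BRG1 libraries carry the genotype label BRG1-overexpressed, where BRG1 is the ATPase of the BAF chromatin remodelling complex, encoded by SMARCA4, and the 2 controls carry the label WT. The string pTK-642 stands in the title of every library and has no explanation in the labels, and whether control cells hold a vector is not stated. Nothing in the labels states that libraries of the same group are separate cultures. The p-values therefore measure only the spread between these samples, which may be technical.

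Reads counted in genes numbered 36238580 and 34684837 in the BRG1-labelled libraries and 38126860 and 34486400 in controls. SMARCA4 stood at 159 and 163 CPM (read counts scaled to library size with TMM factors) in the BRG1-labelled libraries and at 154 and 179 in controls. Its log2 fold change was -0.04 (adjusted p = 0.765, edgeR quasi-likelihood test), so its counts do not check the label. Of 11 fibroblast markers measured, 7 were called higher and 0 lower in the BRG1-labelled libraries. Over all genes tested 21.0% were called higher. VIM, S100A4, COL3A1 and PDGFRB did not pass, with log2 fold changes of -0.27, -0.28, -0.21 and -0.22. The summed level of the fibroblast markers was 41009 and 41026 CPM against 27147 and 30969 CPM in controls. Markers of epithelial, endothelial, immune, melanocyte and skeletal muscle cells summed to at most 17.2 CPM per list in any library. The melanocyte list reached this, with 17.2 and 17.0 CPM against 8.37 and 8.16 CPM in controls. Of that list only MITF passed the filter, and it alone had 16.9 and 16.5 CPM against 7.80 and 7.66 CPM in controls. MLANA had 0 and 0 reads against 15 and 7 in controls, and TYRP1 3 and 15 against 0 and 0. The part of these markers in the members' values was not tested. KRT5, KRT8, TEK, PTPRC and MYOD1 had 0 reads in all 4 libraries. Other genes of the non-fibroblast lists had reads, and PECAM1 and MITF were called higher and EPCAM and TYROBP lower. PECAM1 had 247 and 264 reads against 87 and 104 in controls. EPCAM had 3 and 1 against 14 and 20, and TYROBP 16 and 22 against 80 and 64. In bulk RNA, fewer cells of a kind and less RNA per cell cannot be told apart.

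The members together took 1.68% and 1.69% of gene reads in the BRG1-labelled libraries, against 3.38% and 3.26% in controls. The groups did not overlap in this share, which does not depend on the scaling between libraries. GAPDH, ENO1 and PKM together made up 48.8% and 49.3% of the members' reads in the BRG1-labelled libraries and 56.3% and 56.6% in controls.

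Of the 38 members tested, 28 fell, 2 rose and 8 did not pass an adjusted p of 0.05 (edgeR quasi-likelihood test, adjusted by Benjamini-Hochberg over all 14617 genes tested). Over all genes tested 44.6% passed, 23.6% as lower and 21.0% as higher. At least 2-fold falls were called for 18 members, against 6.27% of all genes, and at least 2-fold rises for 0, against 8.67%. Both BRG1-labelled libraries lay below both controls for 30 members and above both for 3, against 35.7% and 37.5% of all genes. The median log2 fold change of the members was -0.94, and that of all genes was 0.02, with the middle 50% between -0.40 and 0.50. Scaling by library size alone moved the median of all genes to 0.24 and that of the members to -0.72, a shift that all genes share.

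**Figure D1:**
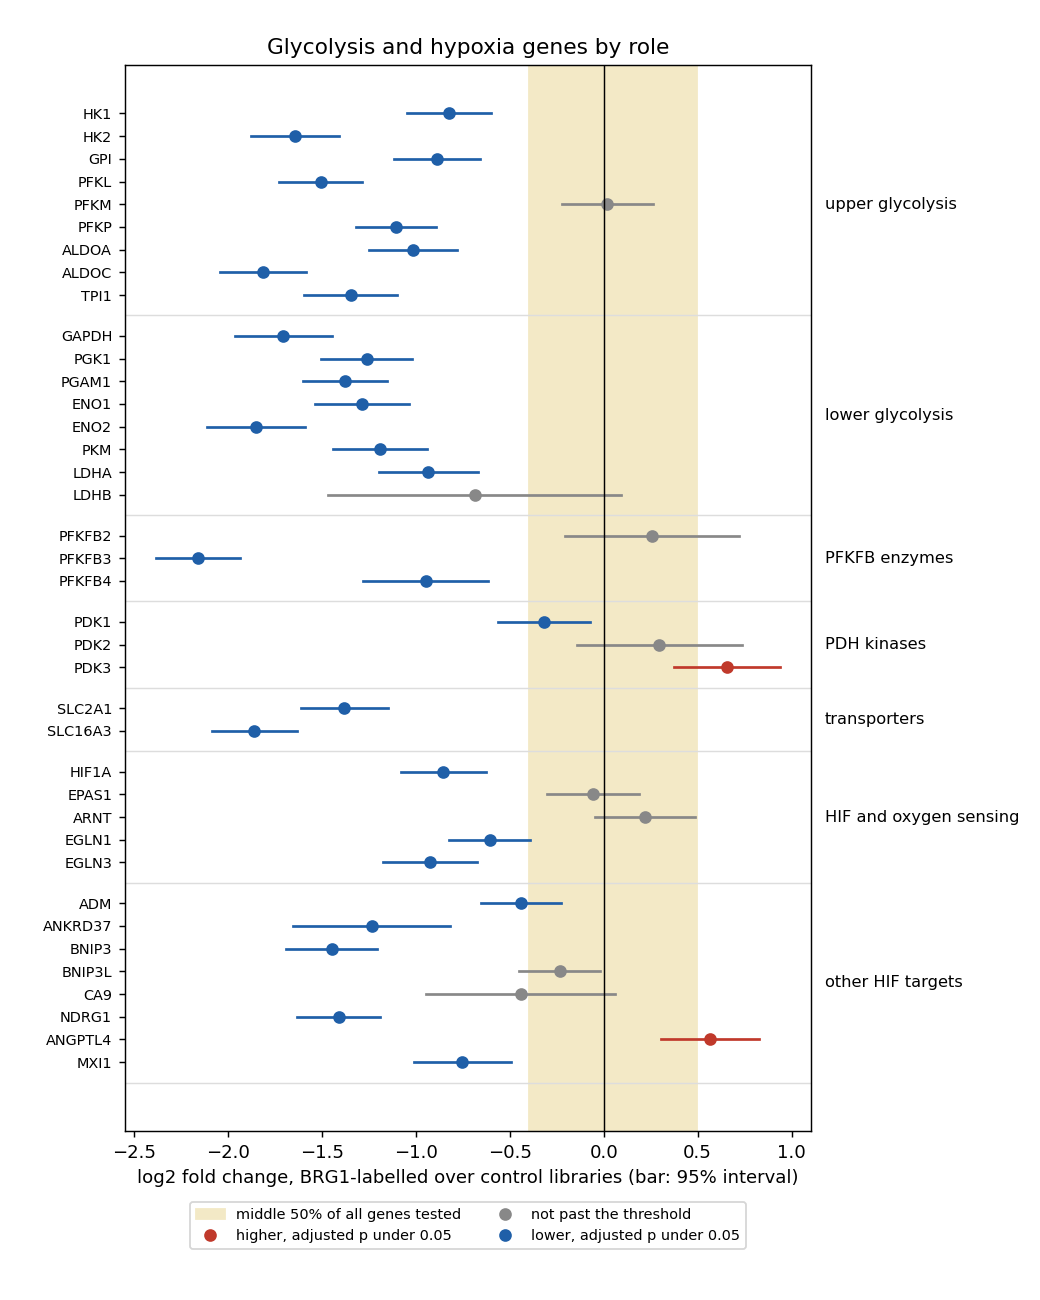
Log2 fold change of each member tested, BRG1-labelled over control libraries (x axis), grouped by role (labels on the right), with 95% intervals as bars and the middle 50% of all genes tested as a band from -0.40 to 0.50. Nearly all glycolytic enzymes, both transporters, PFKFB3, BNIP3 and NDRG1 sit left of the band with intervals clear of 0, while PFKM, PFKFB2, PDK1, PDK2, EPAS1, ARNT and BNIP3L sit within it and PDK3 and ANGPTL4 lie to the right.

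Every step from glucose to lactate had at least 1 enzyme gene that fell. Of 9 genes of the upper part, from glucose to the triose phosphates, 8 fell and PFKM did not pass. Of 8 genes of the lower part, from the triose phosphates to lactate, 7 fell and LDHB did not pass. The class medians were -1.11 and -1.28 on the log2 scale. The smallest fall among the 15 was that of HK1 (-0.82) and the largest that of ENO2 (-1.85).

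Glucose is trapped in the cell by hexokinase. HK2 (ENSSSCG00000008261, Sscrofa11.1 chromosome 3, 68155656 to 68231187), the inducible hexokinase, had 70.9 and 73.5 CPM in the BRG1-labelled libraries, against 208 and 243 CPM in controls. It was 3.12-fold lower (log2 fold change -1.64 ± 0.11 (SE), adjusted p = 2.46e-08, edgeR quasi-likelihood test). HK1, the housekeeping form, had 321 and 341 CPM, against 573 and 598 CPM in controls, and fell by 0.82 ± 0.10 on the log2 scale. GPI, which turns glucose 6-phosphate into fructose 6-phosphate, had 577 and 583 CPM, against 1087 and 1059 CPM in controls. In all 3 genes the groups lay apart by far more than the libraries within a group.

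Phosphofructokinase is the committed step, and its 3 isoform genes differed. PFKL, the liver form, had 213 and 207 CPM in the BRG1-labelled libraries, against 595 and 599 CPM in controls (log2 fold change -1.51 ± 0.10 (SE), adjusted p = 3.41e-08, edgeR quasi-likelihood test). PFKP, the platelet form, had 109 and 114 CPM, against 238 and 244 CPM in controls, 2.15-fold lower. PFKM, the muscle form, had 49.2 and 48.0 CPM, against 51.4 and 44.4 CPM in controls. Its groups overlapped, and the 95% interval of its log2 fold change ran from -0.22 to 0.26 (adjusted p = 0.905, edgeR quasi-likelihood test). The read ratio of PFKL to PFKM was 4.34 and 4.31 in the BRG1-labelled libraries and 11.6 and 13.5 in controls.

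Aldolase and triose phosphate isomerase close the upper part. ALDOA had 926 and 935 CPM in the BRG1-labelled libraries, against 1929 and 1830 CPM in controls (log2 fold change -1.01 ± 0.11). ALDOC, the aldolase best known from brain and induced by hypoxia, had 47.2 and 45.3 CPM, against 173 and 153 CPM in controls. It was 3.52-fold lower. TPI1, which interconverts the triose phosphates, had 529 and 550 CPM, against 1476 and 1269 CPM in controls. The 2 controls differed more for TPI1 than the BRG1-labelled libraries did, and both lay above them.

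GAPDH (ENSSSCG00000000694, chromosome 5, 64129678 to 64135194), the oxidizing step that is often taken as a loading control, had 2460 and 2559 CPM in the BRG1-labelled libraries, against 8291 and 8076 CPM in controls. It was 3.26-fold lower (log2 fold change -1.71 ± 0.12 (SE), adjusted p = 4.09e-08, edgeR quasi-likelihood test), and the log2 change was -1.48 with scaling by library size alone. PGK1, the first ATP-forming step, had 409 and 402 CPM, against 1048 and 899 CPM in controls. PGAM1, a phosphoglycerate mutase, had 150 and 157 CPM, against 418 and 382 CPM in controls. The fold falls of PGK1 and PGAM1 were 2.40 and 2.60.

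ENO1, the ubiquitous enolase, had 2635 and 2644 CPM in the BRG1-labelled libraries, against 6617 and 6280 CPM in controls. ENO2, the neuronal enolase, had 24.8 and 30.1 CPM, against 105 and 93.2 CPM in controls, and its log2 fold change was -1.85 ± 0.12. PKM, the pyruvate kinase of most tissues, had 2465 and 2488 CPM, against 5825 and 5470 CPM in controls. Gene counts do not separate the PKM1 and PKM2 transcripts of this gene. All 3 genes fell with no overlap between groups, a separation in this direction that 35.7% of all genes tested had.

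LDHA, which turns pyruvate into lactate, had 1194 and 1247 CPM in the BRG1-labelled libraries, against 2573 and 2089 CPM in controls. Its log2 fold change was -0.93 ± 0.12, and the gap between the 2 controls was 0.30 on the same scale. LDHB, the subunit that favours the reverse reaction, had 88 and 60 reads, against 138 and 72 reads in controls. It did not pass (adjusted p = 0.143, edgeR quasi-likelihood test) and its value depended on single libraries. The log2 fold change was -0.69 with all libraries, -0.23 without control 1 and -1.05 without control 2. It was -0.95 without BRG1-labelled library 1 and -0.47 without BRG1-labelled library 2. RefSeq lists the LDHB symbol at a gene of 1280 bases on chromosome 2 and at one of 20287 bases on chromosome 5 of Sscrofa11.1, and which of them the row counts was not resolved. GAPDH, LDHA, PGK1 and TPI1 have processed pseudogenes in mammals, to which reads may be lost.

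**Figure D2:**
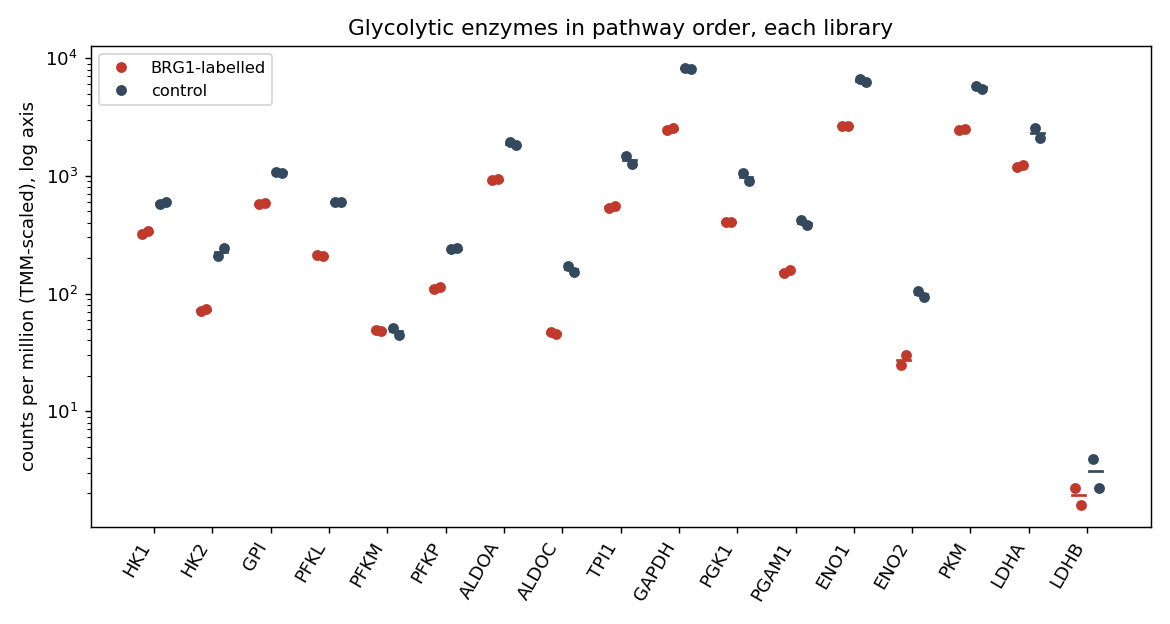
Level of each glycolytic enzyme gene in each library (y axis, TMM-scaled CPM on a log axis) in pathway order (x axis). Points are libraries and short lines group means, with BRG1-labelled libraries left of controls. The BRG1-labelled points lie below the control points for every gene except PFKM and LDHB, where the groups overlap.

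Among genes that code for the same activity, the size of the fall was unequal. The HK2 to HK1 read ratio was 0.221 and 0.215 in the BRG1-labelled libraries and 0.362 and 0.407 in controls. The ALDOC to ALDOA ratio was 0.0509 and 0.0485 against 0.0896 and 0.0835 in controls, and the ENO2 to ENO1 ratio was 0.00940 and 0.0114 against 0.0158 and 0.0148. In each of these pairs the gene of narrower tissue expression took a smaller share of the pair's reads in the BRG1-labelled libraries. Other pairs went the other way. PFKM, the muscle form, took a larger share beside PFKL and PFKP (log2 ratio differences -1.53 and -1.13). The same held for PFKFB2, the heart form, beside PFKFB3 (-2.42). The log2 ratios differed between groups by -0.82 for the hexokinases, -0.80 for the aldolases and -0.57 for the enolases. Each difference exceeded the gaps between libraries of a group, which reached 0.17, 0.10 and 0.27. The gene pairs compared in this way numbered 14, and some of them share a gene. The ratio was lower in the BRG1-labelled libraries for 10 of them and higher for 4. This split depends on which gene of a pair was put first, so it gives no direction of its own. With 2 libraries per group the exact two-sided permutation test gave p = 0.333 for 13 pairs, the smallest it can give (0.359 after Benjamini-Hochberg adjustment over the 14), and 0.667 for LDHB over LDHA.

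**Figure D3:**
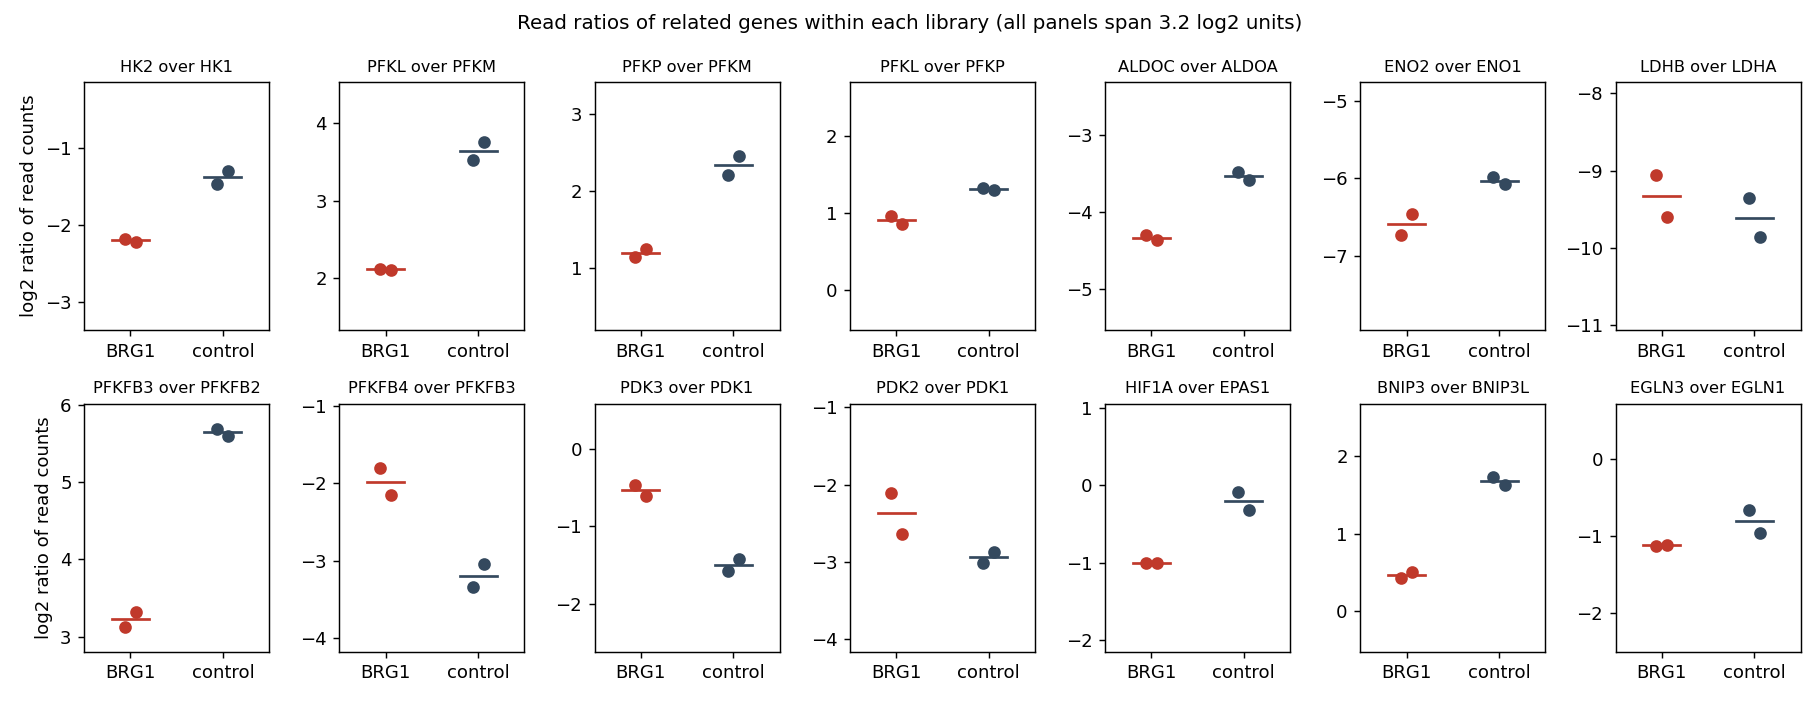
Log2 ratio of the read counts of 2 related genes within each library (y axis), with BRG1-labelled libraries left of controls and lines at group means. All 14 pairs are shown. The ratio is lower in the BRG1-labelled libraries for 10 pairs and higher for 4, which depends on the gene put first. Among the lower are PFKFB3 over PFKFB2 with a difference of -2.42 and PFKL over PFKM with -1.53. The higher are PFKFB4 over PFKFB3 (1.22), PDK3 over PDK1 (0.96), PDK2 over PDK1 (0.57) and LDHB over LDHA (0.28), where the groups overlap.

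The PFKFB enzymes make and break a fructose bisphosphate that serves as the strongest activator of phosphofructokinase. PFKFB3 (ENSSSCG00000011133, chromosome 10, 64776315 to 64859118), the form with the highest kinase activity, had 52.9 and 57.2 CPM in the BRG1-labelled libraries, against 240 and 252 CPM in controls. It was 4.47-fold lower, the largest fall of the 38 members (log2 fold change -2.16 ± 0.11 (SE), adjusted p = 1.83e-09, edgeR quasi-likelihood test). PFKFB4, which hypoxia also induces, had 15.1 and 12.9 CPM, against 23.6 and 30.4 CPM in controls, and fell by 0.95 ± 0.16 on the log2 scale. PFKFB2, the heart form, had 6.07 and 5.72 CPM, against 4.66 and 5.20 CPM in controls. Its libraries did not overlap but it did not pass (adjusted p = 0.357, edgeR quasi-likelihood test). The log2 read ratio of PFKFB3 to PFKFB2 was 3.12 and 3.32 in the BRG1-labelled libraries and 5.69 and 5.60 in controls.

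The carriers at both ends of the pathway fell. SLC2A1, the glucose transporter GLUT1, had 283 and 262 CPM in the BRG1-labelled libraries, against 680 and 741 CPM in controls (log2 fold change -1.38 ± 0.11 (SE), adjusted p = 1.29e-07, edgeR quasi-likelihood test). SLC16A3 (ENSSSCG00000024018, chromosome 12, 796882 to 807480), the lactate exporter MCT4 of glycolytic cells, had 131 and 121 CPM, against 474 and 441 CPM in controls. It was 3.63-fold lower (log2 fold change -1.86 ± 0.11). Neither gene's groups overlapped, and 35.7% of all genes tested likewise had both BRG1-labelled libraries below both controls.

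The pyruvate dehydrogenase kinases, which keep pyruvate out of the mitochondria by phosphorylating pyruvate dehydrogenase, changed in both directions. PDK3, which hypoxia induces in human cells, had 40.6 and 33.8 CPM in the BRG1-labelled libraries, against 24.5 and 22.6 CPM in controls. It rose (log2 fold change 0.66 ± 0.13 (SE), adjusted p = 0.000907, edgeR quasi-likelihood test), but without BRG1-labelled library 1 the value was 0.52 (adjusted p = 0.0503). PDK1, the classical HIF target of the family, had 55.8 and 51.6 CPM, against 73.2 and 60.6 CPM in controls. Its small fall (-0.32 ± 0.12, adjusted p = 0.0364, edgeR quasi-likelihood test) was -0.09 with scaling by library size alone (adjusted p = 0.54). It also lost the call without control 1 (-0.18), without BRG1-labelled library 1 (-0.37) and without library 2 (-0.26). PDK2 had 509 and 311 reads in the BRG1-labelled libraries, against 317 and 266 reads in controls, with CPM values that overlapped and adjusted p = 0.26 (edgeR quasi-likelihood test). Its log2 fold change of 0.30 passed with scaling by library size alone (0.52, adjusted p = 0.0494) and turned to -0.06 without BRG1-labelled library 1, against 0.58 without library 2 (adjusted p = 0.0576).

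Of the 5 genes of HIF and its oxygen sensors tested, 3 fell and 2 did not pass. HIF1A (ENSSSCG00000005096, chromosome 1, 190625436 to 190673926), the alpha subunit that drives glycolytic genes, had 542 and 515 CPM in the BRG1-labelled libraries, against 962 and 951 CPM in controls. It was 1.81-fold lower (log2 fold change -0.85 ± 0.11 (SE), adjusted p = 1.31e-05, edgeR quasi-likelihood test). HIF alpha is controlled mostly as a protein, which was not measured. EPAS1, the alpha subunit HIF2, had 1090 and 1035 CPM, against 1023 and 1187 CPM in controls, and the groups overlapped. Its log2 fold change of -0.06 did not pass (adjusted p = 0.72, edgeR quasi-likelihood test). The value was 0.17 under library size scaling, 0.04 when control 2 was left out, and -0.17 without control 1. A fit with a single control takes its spread from the BRG1-labelled libraries alone. The read ratio of HIF1A to EPAS1 was 0.498 and 0.498 in the BRG1-labelled libraries and 0.940 and 0.801 in controls.

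ARNT, the stable partner, had 69.4 and 79.3 CPM in the BRG1-labelled libraries, against 55.9 and 71.8 CPM in controls. The groups overlapped, and its log2 fold change of 0.22 did not pass (adjusted p = 0.169, edgeR quasi-likelihood test). It passed as higher with scaling by library size alone (0.44, adjusted p = 0.0108, edgeR quasi-likelihood test). With a library left out it stood at 0.39 without control 2, at 0.043 without control 1 and at 0.12 without BRG1-labelled library 2. EGLN1, the main HIF prolyl hydroxylase, had 67.0 and 62.8 CPM, against 96.3 and 101 CPM in controls (log2 fold change -0.61 ± 0.10). EGLN3, a hydroxylase that is itself a HIF target, had 30.6 and 29.0 CPM, against 61.0 and 52.2 CPM in controls (log2 fold change -0.92 ± 0.12). Both hydroxylase genes fell without overlap between groups, a separation in this direction that 35.7% of all genes tested had.

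Among 8 other HIF targets 5 fell, 1 rose and 2 did not pass, with a median of -0.60 on the log2 scale. BNIP3, which marks mitochondria for removal, had 257 and 269 CPM in the BRG1-labelled libraries, against 774 and 664 CPM in controls. It was 2.73-fold lower (log2 fold change -1.45 ± 0.11 (SE), adjusted p = 1.18e-07, edgeR quasi-likelihood test). Its relative BNIP3L had 192 and 190 CPM, against 234 and 215 CPM in controls. BNIP3L did not pass (-0.24, adjusted p = 0.071, edgeR quasi-likelihood test), though it was called lower with no filter on low counts (-0.27). It stood at -0.18 without control 1 and at -0.31 without control 2. The BNIP3 to BNIP3L read ratio was 1.34 and 1.42 in the BRG1-labelled libraries and 3.31 and 3.09 in controls.

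NDRG1, a stress-induced gene long used as a hypoxia marker, had 223 and 224 CPM in the BRG1-labelled libraries, against 582 and 606 CPM in controls (log2 fold change -1.41 ± 0.10). ANKRD37, a small ankyrin repeat protein, had 9.66 and 7.43 CPM, against 24.1 and 16.2 CPM in controls, with a wider error (-1.24 ± 0.20). MXI1, an antagonist of MYC, had 26.5 and 26.9 CPM, against 48.3 and 41.9 CPM in controls (-0.75 ± 0.12). These 3 genes fell and kept their groups apart, as 35.7% of all genes tested did in this direction.

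ADM, the vasodilator peptide adrenomedullin, had 150 and 150 CPM in the BRG1-labelled libraries, against 209 and 198 CPM in controls (log2 fold change -0.44 ± 0.10, adjusted p = 0.00215, edgeR quasi-likelihood test). Its call was lost with scaling by library size alone (-0.21), with the gene span trend taken out (-0.04), and without BRG1-labelled library 1 (-0.44, adjusted p = 0.113) or 2 (-0.45, adjusted p = 0.102). CA9, the carbonic anhydrase that is the best known HIF1 marker, had 4.77 and 3.66 CPM, against 5.49 and 5.98 CPM in controls, which did not overlap but did not pass (-0.44, adjusted p = 0.144, edgeR quasi-likelihood test). ANGPTL4, an inhibitor of lipoprotein lipase that lipid-sensing PPAR receptors also induce, had 50.5 and 42.5 CPM, against 32.1 and 30.7 CPM in controls. It rose by 0.57 ± 0.12 on the log2 scale (adjusted p = 0.00149, edgeR quasi-likelihood test), and was at 0.44 without BRG1-labelled library 1 (adjusted p = 0.1).

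**Figure D4:**
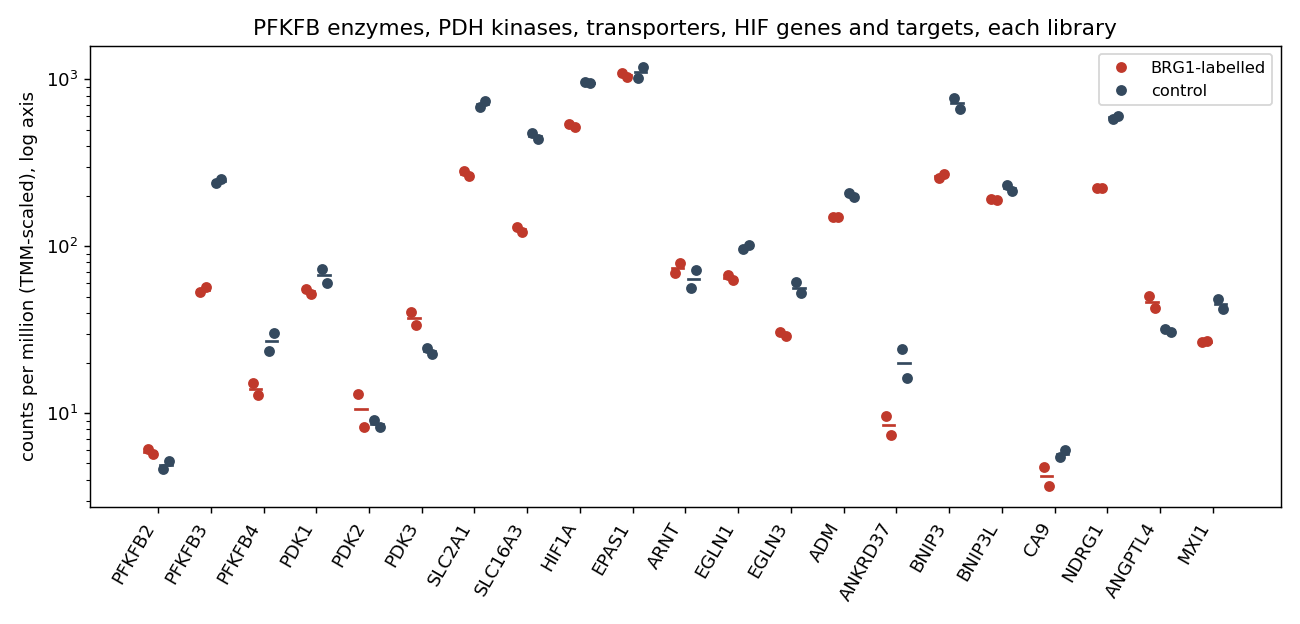
Level in each library (y axis, TMM-scaled CPM on a log axis) of the PFKFB enzymes, pyruvate dehydrogenase kinases, carriers, HIF genes and other HIF targets tested (x axis). Points are libraries and short lines group means, with BRG1-labelled libraries left of controls. PFKFB3, SLC2A1, SLC16A3, BNIP3 and NDRG1 show the widest gaps, EPAS1, ARNT and PDK2 overlap, and PFKFB2, PDK3 and ANGPTL4 are higher in the BRG1-labelled libraries.

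Neighbouring routes of glucose carbon had list medians closer to 0 than either enzyme class. Beside the counts in all neighbouring lists, here and below, 23.6% of all genes tested fell and 21.0% rose. Of 7 pentose phosphate genes tested 5 fell and 1 rose (median -0.75), with PGD, an NADPH-forming enzyme of the oxidative branch, at -1.32, TALDO1 at -0.91 and TKT at -0.83. Of 16 citric acid cycle genes 11 fell and 0 rose (median -0.44), led by OGDH, the oxoglutarate dehydrogenase subunit, at -1.09, with SDHA at -0.71 and IDH3G at -0.66. Of 9 genes for pyruvate entry into mitochondria 1 fell and 0 rose (median close to 0), and the fall was that of PDHX, a structural part of pyruvate dehydrogenase, with 39.4 and 38.3 CPM in the BRG1-labelled libraries, against 78.8 and 76.7 CPM in controls. Of 9 glycogen genes 4 fell and 1 rose (median 0.13), with GYS1, glycogen synthase, at -0.64.

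Of 14 other genes of glycolysis and gluconeogenesis 4 fell and 5 rose (median 0.08). BPGM, the mutase that makes the bisphosphoglycerate of red cells, had 21.1 and 17.8 CPM in the BRG1-labelled libraries, against 8.77 and 8.13 CPM in controls (log2 fold change 1.20), and LDHD, a D-lactate dehydrogenase, was at 1.17. PGAM5, a mitochondrial phosphatase that shares the mutase fold, was at -0.99. None of these lists was tested as a list.

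Of 20 further hypoxia-responsive genes 13 fell and 2 rose (median -0.51). VEGFA, the angiogenic growth factor, had 430 and 429 CPM in the BRG1-labelled libraries, against 1228 and 1398 CPM in controls (log2 fold change -1.61), DDIT4, an inhibitor of mTORC1, was at -1.51 and NDUFA4L2, a mitochondrial protein that HIF1 induces, at -1.64. Of 7 other regulators of HIF 1 fell and 1 rose (median -0.13). The fall was that of ELOB, with 90.5 and 86.6 CPM in the BRG1-labelled libraries, against 163 and 151 CPM in controls (log2 fold change -0.83). The rise was that of ARNT2, the paralog of ARNT, with 128 and 130 CPM in the BRG1-labelled libraries, against 35.2 and 45.8 CPM in controls (log2 fold change 1.67). Of 5 genes of glucose-sensing transcription and its targets 4 fell and 0 rose (median -0.68). TXNIP, a brake on glucose uptake, had 21.5 and 22.1 CPM, against 65.8 and 69.8 CPM in controls (-1.64), with ARRDC4 at -1.03 and MLX at -0.68.

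**Figure D5:**
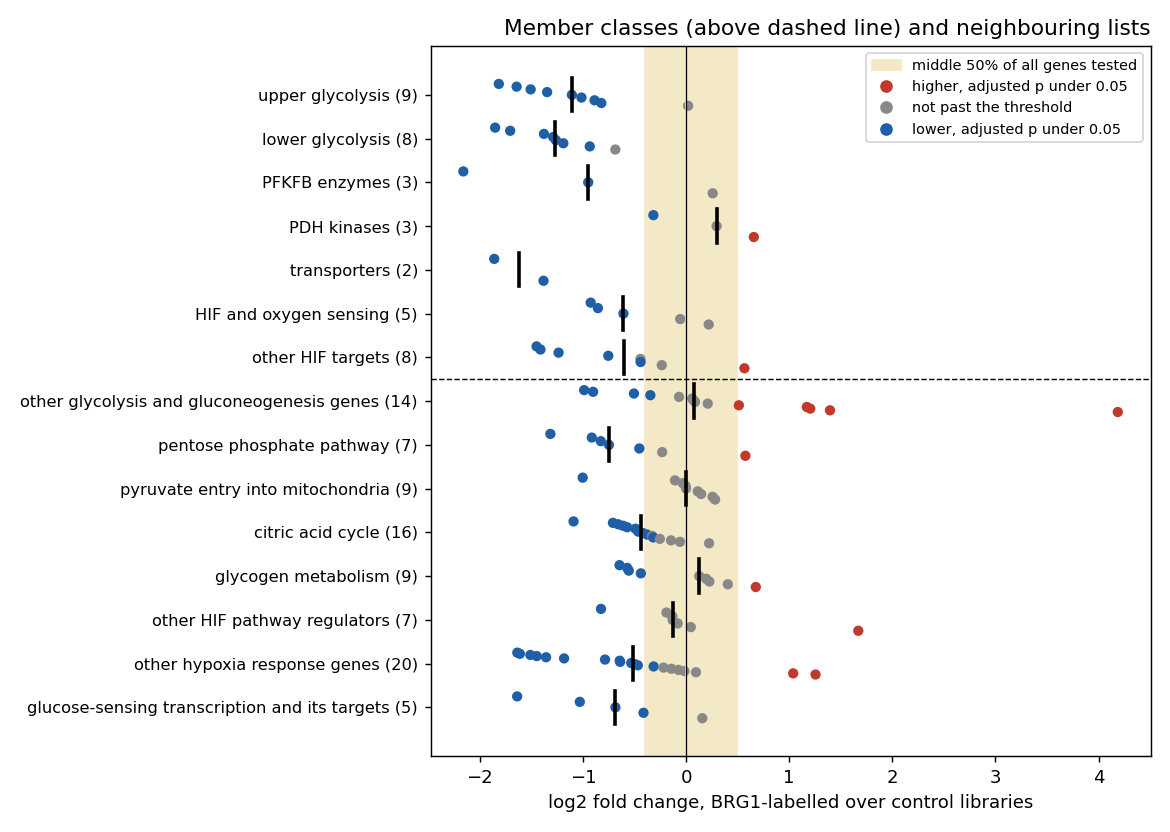
Log2 fold change of each gene tested (x axis), BRG1-labelled over control libraries, by list (y axis, number of genes tested in brackets), with list medians as black ticks and the middle 50% of all genes as a band. The member classes stand above the dashed line and the neighbouring pathway lists below it, where the medians run from -0.75 for the pentose phosphate pathway to 0.13 for glycogen metabolism.

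Reads that fell outside annotated genes were 10.3% and 10.5% of the total in the BRG1-labelled libraries and 6.11% and 7.34% in controls, and reads on more than 1 gene 1.91% and 1.90% against 2.33% and 2.14%. RefSeq places another gene over 15 of the 37 members tested that it lists at 1 place, GAPDH, ALDOA, ENO1, PFKM and HIF1A among them. The part of these differences in the members' values was not tested. With the trend of log2 CPM on gene span taken out of every library, the median of the upper enzymes was -0.99, that of the lower enzymes -1.18 and that of the carriers -1.50, and 27 of the 28 members that fell kept the call.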

How the data were processed

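RNA of 2 BRG1-labelled and 2 control libraries was compared. Each library has a deposited file of raw counts by Ensembl gene. FastQC, STAR, SAMtools, Cufflinks, DESeq2 and edgeR and the build Sscrofa11.1 are named in the submitters' processing notes; not given in the sources used here are the read counter, strand setting and annotation release, which leaves reads of overlapping or antisense genes unresolved. Rows that name no gene stayed out of library sizes and tests; their shares stand in the report.

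Fits used R 4.3.3 and edgeR 4.0.16 on all genes: filterByExpr (minimum count 10, minimum total 15), TMM scaling, the quasi-likelihood test of group over all 4 libraries and Benjamini-Hochberg adjustment over the 14617 genes tested, at a threshold of 0.05. Log2 fold changes are fitted with a prior count of 0.125; the SE divides the unshrunk change by the root of its F statistic. CPM rescale the deposited counts to library size times the TMM factor (1.08 and 1.08 for BRG1-labelled libraries, 0.918 and 0.931 for controls). Members were matched by the symbol in the files. RefSeq's table of Sscrofa11.1, matched on symbol, gave a gene span for 77.4% of genes tested.

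The members, role classes and neighbouring lists were chosen with earlier results of these data known, so no list was tested. Every member is named; of each neighbouring list up to 3 genes with the smallest adjusted p are, except that a gene of the glycogen list is not reported here. Replicates differed by more than counting noise (chi-square per degree of freedom 5.40 between BRG1-labelled libraries and 39.8 between controls). Alternatives were 2 other scalings, 2 other filters, DESeq2 1.42.0, the replicate number as a block, each library left out, and a fit with the lowess trend of log2 CPM on gene span taken out of each library.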

Additional observations from a re-analysis of the deposited data

How the results depend on the processing

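Of 418 pairs of a member and an alternative, 394 kept the direction and the side of the threshold, and the rest concern PFKM, LDHB, PDK1, PDK2, PDK3, EPAS1, ARNT, ADM, BNIP3L and ANGPTL4. Members called lower numbered 26 to 30 over all alternatives. Members called higher numbered 4 with library size alone and 0 to 3 with a library left out, with 0 without BRG1-labelled library 1. Over all genes, library size alone gave 4820 higher and 2139 lower, and leaving out a library gave 1908 to 3673 higher and 2177 to 4321 lower, with the lowest counts without a BRG1-labelled library. Labels give both groups the numbers 1 and 2 but no shared culture or day, and the correlation of same-numbered deviations was -0.04. The replicate block gave 28 members lower and 2 higher, as without it, and 3189 higher and 3505 lower genes.

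With library size alone the medians on the log2 scale were -0.72 for members, -0.88 for upper and -1.05 for lower enzymes, -0.72 for PFKFB enzymes, -1.40 for carriers, -0.38 for HIF and oxygen sensing and -0.37 for other HIF targets. With the span trend removed they were -0.99 for upper and -1.18 for lower enzymes, -1.50 for carriers and -0.69 for HIF and oxygen sensing. Without a filter the PFKFB median was -1.58, where PFKFB1 with 1 read enters. With a library left out they ranged from -1.06 to -0.90 for members, -1.14 to -1.07 for upper and -1.36 to -1.21 for lower enzymes, -1.13 to -0.77 for PFKFB enzymes, -0.06 to 0.58 for the kinases, -1.68 to -1.57 for carriers, -0.65 to -0.56 for HIF and oxygen sensing and -0.69 to -0.58 for other HIF targets. PFKM, called under none of them, stood at -0.010 with no filter, at -0.049 with the span trend removed and between -0.098 and 0.12 with a library left out. EPAS1 stood at 0.17 with library size alone and between -0.17 and 0.038 with a library left out. PDK2 and with it the kinase median stood at -0.059 without BRG1-labelled library 1. With 2 libraries per group the spread within a group rests on a single difference, and a fit without a library assumes that the lone library of a group varies like those of the other group.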
